A study of Mus musculus with 4 samples.

Results

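The interferon-inducible GTPases described here were 10 genes of 2 families, chosen by name from the 17561 genes of the expression table. The guanylate-binding proteins (GBPs) were Gbp2, Gbp3, Gbp4, Gbp6 and Gbp7, and the immunity-related GTPases (IRGs) were Irgm1, Irgm2, Igtp, Ifi47 and Tgtp2. All 10 had UMIs, between 891 for Gbp6 and 30278 for Ifi47. A UMI, or unique molecular identifier, stands for 1 captured RNA molecule, and levels are given as UMIs of a gene per 1000000 UMIs of the same cells (CPM).

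The cells were CD8+ T cells, sorted by FACS from the BM of mice 4 weeks (day 28) after SCT and sequenced with a 5′ droplet method. There were 4 treatment groups of 1 library each, with 5 pooled mice per library: isotype control antibody with vehicle (cIg), TIGIT inhibition with vehicle, isotype control with lenalidomide, and TIGIT inhibition with lenalidomide. Antibody was given from the day of transplant and lenalidomide, at 50 mg/kg, from day 14. All recipients were female, 8 to 12 weeks old, on a C57BL/6 background (WT or CRBN transgenic), bore Vk12653 myeloma injected 2 weeks before SCT, and received BM and T cells from genetically matched donors. CRBN mice carry a cereblon that lenalidomide can engage, unlike that of WT mice, and which library came from which strain is not given in the sources used here. The libraries carry only the numbers 1 to 4 in the cell table, so no library was assigned to a treatment and no treatments were compared.

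GBPs and IRGs are large cytosolic GTPases whose genes are switched on by interferons, most strongly by IFN-γ. The signal runs from the receptor through JAK kinases to transcription factors that bind GAS elements or the interferon-stimulated response element (ISRE). The proteins coat the vacuoles of intracellular parasites and bacteria and help to break them. Among the IRGs, Irgm1, Irgm2 and Igtp (also called Irgm3) are regulators that sit on host membranes and hold the effector IRGs, which include Ifi47 (Irgd) and Tgtp2 (Irgb6), in check. In T cells, Irgm1 is known to protect IFN-γ-exposed CD4+ T cells from death.

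The genes lie on 3 mouse chromosomes (GENCODE M21 annotation of GRCm38), and all are annotated as protein coding. On chromosome 3, on the plus strand, were Gbp7 (ENSMUSG00000040253, chr3:142530342-142550149), Gbp3 (ENSMUSG00000028268, chr3:142560026-142573209) and Gbp2 (ENSMUSG00000028270, chr3:142620602-142638008). On the minus strand of chromosome 5 were Gbp4 (ENSMUSG00000079363, chr5:105115767-105139586) and Gbp6 (ENSMUSG00000104713, chr5:105270702-105293698). The IRG genes were on chromosome 11: Irgm1 (ENSMUSG00000046879, chr11:48861968-48871683) and Tgtp2 (ENSMUSG00000078921, chr11:49057194-49064206) on the minus strand, Ifi47 (ENSMUSG00000078920, chr11:49076587-49096974), Igtp (ENSMUSG00000078853, chr11:58199556-58207591) and Irgm2 (ENSMUSG00000069874, chr11:58199618-58222782) on the plus strand. Gbp4 overlaps Gbp8 and Gbp9, Igtp overlaps Irgm2, and Ifi47 and Tgtp2 each overlap Olfr56. Tgtp2 also has a near-identical neighbor, Tgtp1, and how reads were divided between such copies was not tested.

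The promoters of the members share interferon motifs, so these stretches are shown. RefSeq promoter windows (GRCm38.p6), from 250 bases before to 50 after the annotated start, matched 8 of the 10 members (not Gbp4 and Gbp6), with 9 windows. Both strands were searched for the ISRE core GAAANNGAAA, whose reverse complement is TTTCNNTTTC, and for the GAS motif TTCNNNGAA. An ISRE core was present in the windows of 7 of 8 members and of 3.99% of all 27025 genes (3.44% of all 32851 windows). The lines give each first match in capitals with 15 bases on either side, read along the strand of the gene.
Gbp7 (chr3:142530268-142530307, plus strand): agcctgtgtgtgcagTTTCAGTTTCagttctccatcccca
Gbp3 (chr3:142559984-142560023, plus strand): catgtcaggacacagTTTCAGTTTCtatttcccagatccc
Gbp2 (chr3:142620589-142620628, plus strand): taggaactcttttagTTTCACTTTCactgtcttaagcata
Igtp (chr11:58199507-58199546, plus strand): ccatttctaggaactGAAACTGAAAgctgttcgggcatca
Irgm2 (chr11:58214898-58214937, plus strand): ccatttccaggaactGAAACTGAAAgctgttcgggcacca
Tgtp2 (chr11:49064258-49064297, minus strand): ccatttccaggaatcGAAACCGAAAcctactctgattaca
Irgm1 (chr11:48871426-48871465, minus strand): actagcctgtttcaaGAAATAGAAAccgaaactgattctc
In the 3 GBP promoters the core was in the reverse orientation, and in the 4 IRG promoters it was in the forward orientation. The matches began between 30 bases (Irgm1) and 70 bases (Tgtp2) before the start. Gbp3 and Irgm1 each had a second match that overlapped the first. A GAS motif was present in 4 members (Gbp7, which had 2, Igtp, Irgm2 and Tgtp2) and in 9.55% of all genes (8.30% of all windows). In Igtp, Irgm2 and Tgtp2 it began 11 bases before the ISRE core, without overlap. The window of Ifi47 and the second window of Gbp3 held neither set of letters, which says only that these letters are absent from those windows. A match of letters is not a measured binding site.

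The cell table named 8 clusters: naive cells (Tn), central memory cells (Tcm), transitory effectors (transitory Teff), GzmB+ Teff, GzmA+ exhausted cells (GzmA+ Tex), TIGIT+ Teff, TIM-3+ Tex and cycling cells. They held 11754 cells and 106039690 UMIs, 15556967 to 38440687 UMIs per library and 571 to 3418 cells per cluster. Summed CD8+ T cell markers (Cd3e, Cd3g, Cd8a, Cd8b1) were at 2442 to 6289 CPM in every cluster, and Cd4 was at 0 to 1.53 CPM. The macrophage list was at 1539 CPM in GzmA+ Tex and at 7.34 to 87.3 CPM elsewhere, and Malat1, a nuclear RNA, was at 6564 CPM in TIGIT+ Teff and at 2271 to 2984 CPM elsewhere. Cell barcodes found in more than 1 library numbered 56, covering 112 cells. The clusters were made from the same expression values, and there is 1 library per group, so the differences below are descriptions without a test. Intervals are 95% intervals for counting error only, and values in single libraries show the spread.

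GzmB+ Teff had the highest level of all 10 GTPases among the 8 clusters in each of the 4 libraries. Among all genes with at least 10 CPM, 1.92% had that pattern, and Gbp6 lay below that floor over all cells. For 8 members, all but Gbp7 and Irgm2, every library of GzmB+ Teff was above every library of every other cluster, a pattern that 1.45% of all genes had. The 10 members together were at 2027 CPM in GzmB+ Teff (95% interval 1993 to 2062; 13219 UMIs) and at 722 CPM in the other 4 Teff and Tex clusters. The log2 ratio was 1.49 (1.46 to 1.52) and was between 1.18 and 1.59 in single libraries. All 10 were at least 1.5-fold higher, against 3.04% of the 7554 genes with at least 10 CPM over the compared cells, and their median log2 ratio was 1.71, against −0.23 over all genes tested. Gbp6, at 9.06 CPM in the other Teff and Tex clusters, passed that floor only through GzmB+ Teff, so its place in the count was set by the floor. With the floor set in the other clusters alone, all 9 members that passed it were higher, against 2.78% of all genes.

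**Figure D1:**
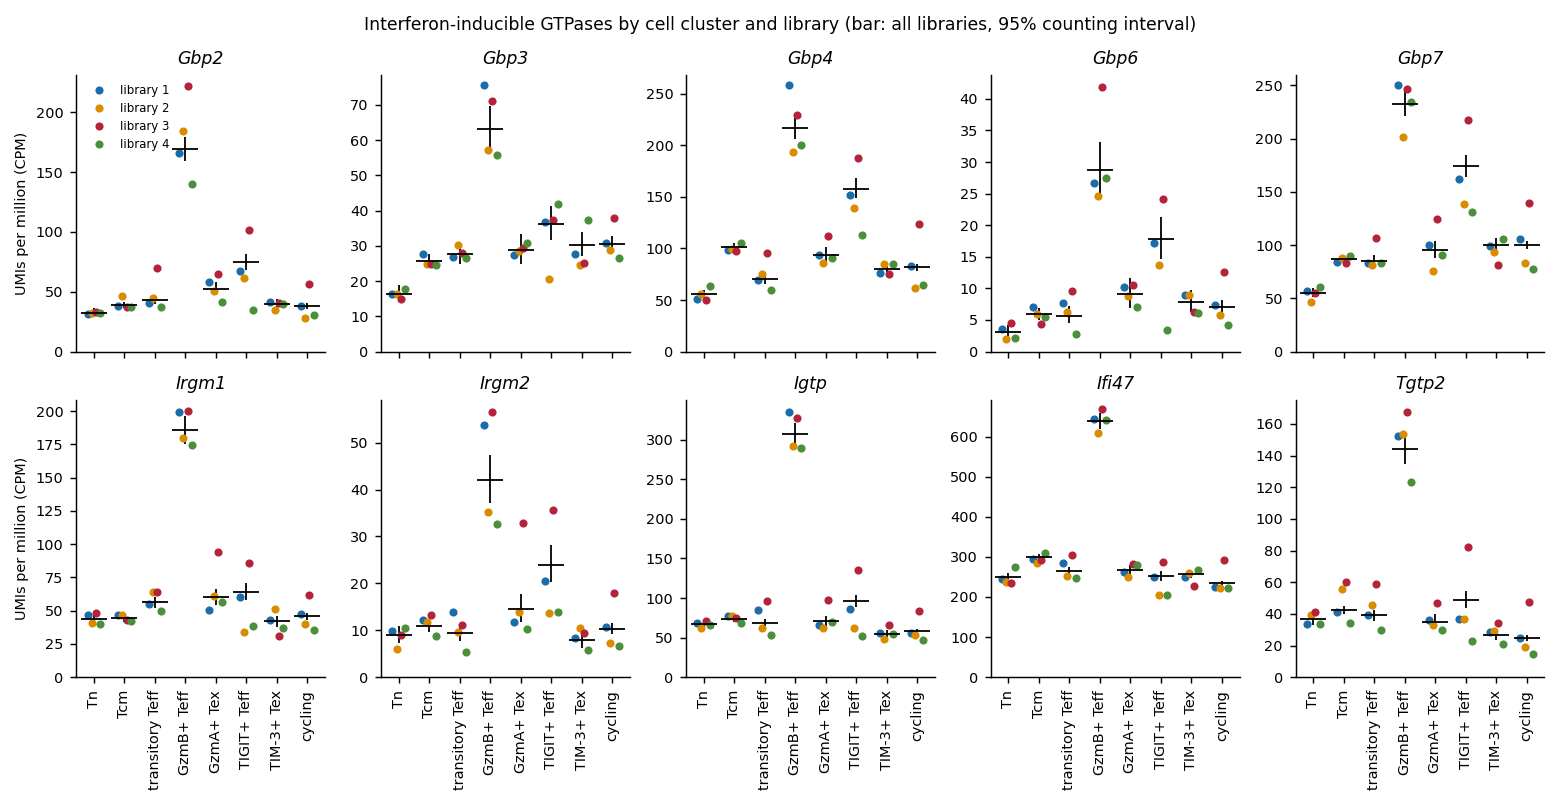
Level of each GTPase (CPM, y axis from 0, a scale of its own in each panel) in 8 clusters (x axis). Points are single libraries, and black bars with lines are all libraries with their 95% counting interval. The 4 GzmB+ Teff points are the highest of their library in every panel, and library 3 is often the highest point in TIGIT+ Teff and cycling cells.

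The regulatory IRGs were 3.36-fold (Irgm2) to 4.41-fold (Igtp) higher in GzmB+ Teff than in the other Teff and Tex clusters. Igtp was at 336, 292, 328 and 289 CPM in GzmB+ Teff of libraries 1 to 4, and between 47.4 and 135 CPM in every library of the other clusters, so the groups did not overlap. Its log2 ratio to the other Teff and Tex clusters was 2.14 (2.06 to 2.23), the highest of the 10 members. Irgm1, at 199, 180, 199.9 and 175 CPM in GzmB+ Teff of libraries 1 to 4, was at 31.2 to 94.2 CPM in the libraries of other clusters, and its log2 ratio was 1.78 (1.67 to 1.88). Irgm2 was at 53.9, 35.2, 56.5 and 32.7 CPM in GzmB+ Teff, with 274 UMIs in all. Its lowest GzmB+ Teff library lay under the 35.7 CPM of TIGIT+ Teff in library 3 and the 33.0 CPM of GzmA+ Tex in library 3, and its log2 ratio was 1.75 (1.53 to 1.97).

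Of the effector IRGs, Ifi47 differed least between libraries in this contrast. Ifi47 was at 644, 608, 668 and 641 CPM in GzmB+ Teff of libraries 1 to 4, against 204 to 310 CPM in the libraries of the other clusters, and its log2 ratio was 1.29 (1.24 to 1.34), with single libraries between 1.22 and 1.32. Outside GzmB+ Teff the level of Ifi47 in whole clusters stayed between 235 CPM in cycling cells and 299 CPM in Tcm. Tgtp2 was at 152, 153, 167 and 123 CPM in GzmB+ Teff, against 14.7 to 82.4 CPM elsewhere, and its log2 ratio was 1.98 (1.86 to 2.10). Its neighbor Tgtp1 was at 20.9 CPM in GzmB+ Teff and 3.10 CPM in the other Teff and Tex clusters. Among the other clusters Tgtp2 was lowest in cycling cells, at 25.0 CPM, and in TIM-3+ Tex, at 26.4 CPM.

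The 5 GBPs together were at 710 CPM in GzmB+ Teff and 289 CPM in the other Teff and Tex clusters, a log2 ratio of 1.30 (1.25 to 1.35), and the 5 IRGs had a log2 ratio of 1.60 (1.56 to 1.64). Gbp2, a prenylated GBP that is recruited to pathogen vacuoles, was at 166, 185, 222 and 140 CPM in GzmB+ Teff of libraries 1 to 4, above the 28.4 to 102 CPM of all other clusters, with a log2 ratio of 1.77 (1.66 to 1.88). Gbp4 was at 258, 193, 229 and 200 CPM in GzmB+ Teff, and its nearest value elsewhere was the 187 CPM of TIGIT+ Teff in library 3. Gbp7 was at 250, 201, 247 and 234 CPM, and the 218 CPM of TIGIT+ Teff in library 3 lay above its lowest GzmB+ Teff library. The log2 ratios of Gbp4 and Gbp7 were 1.22 (1.13 to 1.31) and 1.12 (1.03 to 1.20).

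Gbp3 and Gbp6 had the lowest counts of the GBPs. Gbp3 was at 75.5, 57.1, 71.2 and 55.7 CPM in GzmB+ Teff and at 14.9 to 41.8 CPM elsewhere, with a log2 ratio of 1.07 (0.90 to 1.23), the smallest of the 10. Gbp6, with 187 UMIs in GzmB+ Teff, was at 26.6, 24.6, 41.9 and 27.4 CPM there, and its highest library elsewhere was at 24.2 CPM. Its log2 ratio was 1.66 (1.39 to 1.93).

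Single cells were compared after each was thinned at random to 2500 UMIs, so that depth was equal, and all 11754 cells were kept. At least 1 UMI of any member was found in 96.6% of GzmB+ Teff cells (95% to 97.8%) and in 80.5% of the other Teff and Tex cells (79.3% to 81.7%). The shares were 87.6% in TIGIT+ Teff, 82.3% in Tcm, 74.4% in cycling cells and 73.6% in Tn. Before thinning they were 100%, 96.0% and 95.4% in GzmB+ Teff, the other Teff and Tex, and Tn. No cluster is known to lack these genes, so free RNA was read from transcripts of other cells: Lyz2 was found in 0.0745% to 1.40% of thinned cells outside GzmA+ Tex, where it was found in 21.5%, and Igkc in 0.522% to 10.9%.

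The number of different members per cell set GzmB+ Teff apart more than the presence of any one. At least 4 of the 10 members were detected in 45.9% of GzmB+ Teff cells (42.2% to 49.6%), with 39.9% to 50.8% in single libraries. The share was 13.4% in TIGIT+ Teff (11.1% to 15.9%), where it varied from 3.39% to 19.6% between libraries, and 2.24% (Tn) to 7.36% (GzmA+ Tex) in the other clusters. The mean cell of GzmB+ Teff held 5.74 member UMIs of its 2500, and the mean Tn cell held 1.42. Igtp was detected in 53.3% of GzmB+ Teff cells and in 15.9% of other Teff and Tex cells, and Ifi47 in 76.5% and 46.5%.

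**Figure D2:**
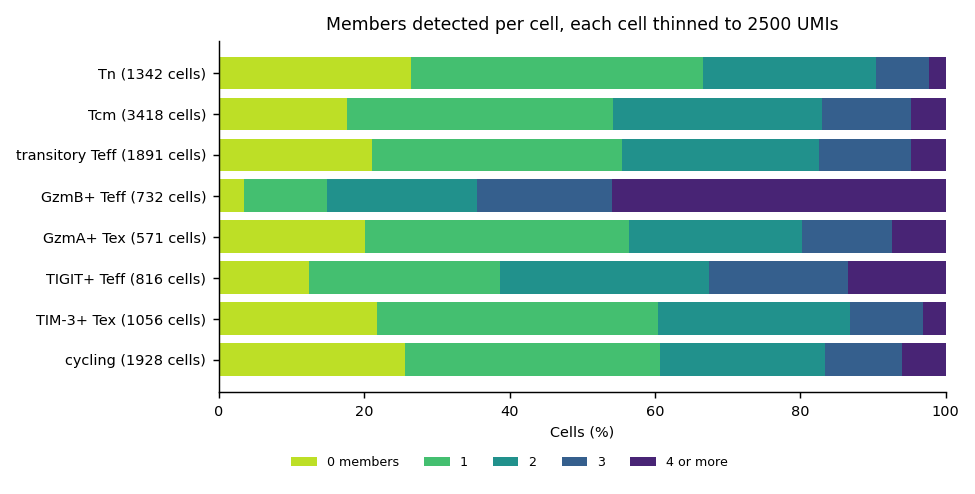
Share of cells (x axis, percent) by the number of the 10 GTPases detected, for each cluster (y axis, with its number of cells), after thinning every cell to 2500 UMIs. The darkest part, 4 or more members, takes 45.9% of GzmB+ Teff cells and 13.4% of TIGIT+ Teff cells.

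Against naive cells, the families differed. In the 5 Teff and Tex clusters together the members were at 922 CPM, against 568 CPM in Tn, a log2 ratio of 0.70 (0.66 to 0.74; 0.54 to 1.10 in single libraries). At least 1.5-fold higher were 8 of 10, against 23.2% of all genes, comprising the 5 GBPs, Irgm1, Irgm2 and Igtp. Gbp6 and Irgm2, at 3.03 and 8.90 CPM in Tn, passed 10 CPM only through the Teff and Tex cells, and with the floor set in Tn 6 of 8 were higher, against 17.8%. The 5 GBPs had a log2 ratio of 1.12 (1.05 to 1.19) and the 5 IRGs one of 0.49 (0.44 to 0.53). The median over all genes tested was 0.30. The difference of the members from Tn was smaller without GzmB+ Teff. In the other 4 clusters the members were at 722 CPM, a log2 ratio to Tn of 0.35 (0.31 to 0.39), with 0.83 (0.76 to 0.90) for the GBPs and 0.10 (0.05 to 0.15) for the IRGs. Without GzmB+ Teff 4 of 9 members (Gbp2, Gbp3, Gbp4 and Gbp7) were 1.5-fold higher, against 26.1% of all genes. Cluster by cluster, the IRG log2 ratio to Tn was 1.70 in GzmB+ Teff, 0.26 in TIGIT+ Teff, 0.14 in GzmA+ Tex, 0.11 for transitory Teff and −0.07 in TIM-3+ Tex. In single libraries this IRG ratio was 1.57 to 1.81 in GzmB+ Teff, −0.36 to 0.63 in TIGIT+ Teff and 0.07 to 0.46 in GzmA+ Tex. It was −0.14 to 0.41 for transitory Teff and −0.14 to 0.05 in TIM-3+ Tex. Over all genes tested, the median log2 ratio was 0.08 in GzmB+ Teff, 0.56 in TIGIT+ Teff and 0.25 in GzmA+ Tex. This median was 0.21 for transitory Teff and 0.27 in TIM-3+ Tex. With all libraries together, the IRG sums of the 4 Teff and Tex clusters other than GzmB+ Teff thus lay below the median gene. Ifi47 weighs most in these sums, with 2718 of the 4419 IRG UMIs of Tn. The median over the single IRGs tested was 0.52 in TIGIT+ Teff, where Irgm2 had 1.43 and Ifi47 had 0.02. That median was 0.10 in GzmA+ Tex, 0.09 for transitory Teff and −0.18 in TIM-3+ Tex. The GBP log2 ratio was 2.13 in GzmB+ Teff, 0.79 in GzmA+ Tex, 0.67 in TIM-3+ Tex and 0.52 for transitory Teff, and in TIGIT+ Teff the GBPs were at 461 CPM, against 162 CPM in Tn. Of the 8 members with at least 10 CPM in Tn, 8 were at least 1.5-fold above Tn in GzmB+ Teff (7.81% of all genes), 4 in GzmA+ Tex (15.5%) and 2 in transitory Teff (11.8%). GzmA+ Tex also held the macrophage markers given above, whose part in its values was not tested. These contrasts share the Tn cells.

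In TIM-3+ Tex the GBPs were above Tn and the IRGs were not. Of the 8 members with at least 10 CPM in Tn, 2 (Gbp3 and Gbp7) were at least 1.5-fold higher. So were 17.9% of all genes, a share near that of the members. The median log2 ratio of these 8 members was 0.16, against 0.27 over all genes tested. The GBPs together were higher than in Tn in all 4 libraries, with log2 ratios from 0.53 to 0.69. Igtp was at 54.4 CPM in TIM-3+ Tex and 66.9 CPM in Tn, and Tgtp2 at 26.4 and 36.8 CPM. Both were lower in TIM-3+ Tex in all 4 libraries, with log2 ratios of −0.30 (−0.46 to −0.14) and −0.48 (−0.71 to −0.26). Between TIM-3+ Tex and transitory Teff no member passed 1.5-fold in either direction, against 3.85% of all genes higher and 2.90% lower. The sum had a log2 ratio of −0.06 (−0.10 to −0.01), which was −0.50 to 0.15 in single libraries. Tgtp2 and Irgm1 were lower in TIM-3+ Tex in all 4 libraries, with log2 ratios of −0.57 (−0.79 to −0.35) and −0.42 (−0.60 to −0.25).

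Tcm carried more of the GBPs than Tn, and the difference in the IRGs was smaller. Gbp4 was at 98.7, 99.2, 97.3 and 105 CPM in Tcm of libraries 1 to 4 and at 51.2, 55.5, 50.3 and 63.1 CPM in Tn, without overlap. Gbp7, at 83.0 to 89.5 CPM against 46.7 to 60.2 CPM, and Gbp3, at 24.5 to 27.8 CPM against 14.9 to 17.8 CPM, did not overlap either. The same held for Gbp2, at 37.2 to 46.2 CPM against 31.7 to 33.1 CPM. It also held for Ifi47, at 284 to 310 CPM against 235 to 275 CPM. The share of all genes without such overlap was not counted, so these ranges describe the members and do not set them apart from other genes. Gbp3, Gbp4 and Gbp7 were at least 1.5-fold higher, of 9 members with at least 10 CPM, against 8.63% of all genes. The log2 ratio was 0.67 (0.59 to 0.75) for the 5 GBPs and 0.21 (0.16 to 0.26) for the 5 IRGs. Irgm1, at 44.2 CPM in Tcm and 43.5 CPM in Tn, had a log2 ratio of 0.03 (−0.13 to 0.18).

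In cycling cells the members were at 631 CPM and in the 5 Teff and Tex clusters at 922 CPM, a log2 ratio of −0.55 (−0.57 to −0.52) that was negative in all 4 libraries. At least 1.5-fold lower were 6 of 10 (Gbp2, Gbp6, Irgm1, Irgm2, Igtp and Tgtp2), against 4.82% of all genes. Tgtp2 had the largest difference, with a log2 ratio of −1.08 (−1.21 to −0.96), and Gbp3 the smallest, with −0.20 (−0.33 to −0.08). These calls rest on GzmB+ Teff. Against the other 4 Teff and Tex clusters, at 722 CPM, the log2 ratio was −0.19 (−0.22 to −0.17), negative in all 4 libraries, and no member was 1.5-fold lower, against 4.54% of all genes. Tgtp2 then had a log2 ratio of −0.55 (−0.68 to −0.41) and Gbp3 one of 0.02 (−0.11 to 0.15).

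TIGIT+ Teff was second to GzmB+ Teff for the GBPs in all libraries together. The 5 GBPs were at 436, 374, 569 and 324 CPM in TIGIT+ Teff of libraries 1 to 4, against 203 to 370 CPM in transitory Teff, GzmA+ Tex, TIM-3+ Tex and cycling cells, a range that its lowest library overlapped. Relative to transitory Teff, GzmA+ Tex and TIM-3+ Tex, 4 of 9 members with at least 10 CPM were 1.5-fold higher (Gbp2, Gbp4, Gbp7, Irgm2), but so were 32.8% of all genes, a share near that of the members. The log2 ratio was 0.87 (0.81 to 0.94) for the summed GBPs, 0.43 to 0.87 in single libraries. For the summed IRGs it was 0.20 (0.14 to 0.26), and they were higher in 2 libraries and lower in the other 2. Single IRGs differed: Irgm2 had 1.26 and was higher in all 4 libraries. Ifi47, with 1623 of the 3116 IRG UMIs of TIGIT+ Teff, had −0.05 and was lower in all 4. Igtp (0.58), Tgtp2 (0.53) and Irgm1 (0.30) had signs that differed between libraries. Of the 8 members with at least 10 CPM in Tn, 4 were 1.5-fold above Tn, beside 43.9% of all genes. This cluster also had the highest Malat1 level and the highest median mitochondrial share, 2.87%, and their part in these values was not tested.

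**Figure D3:**
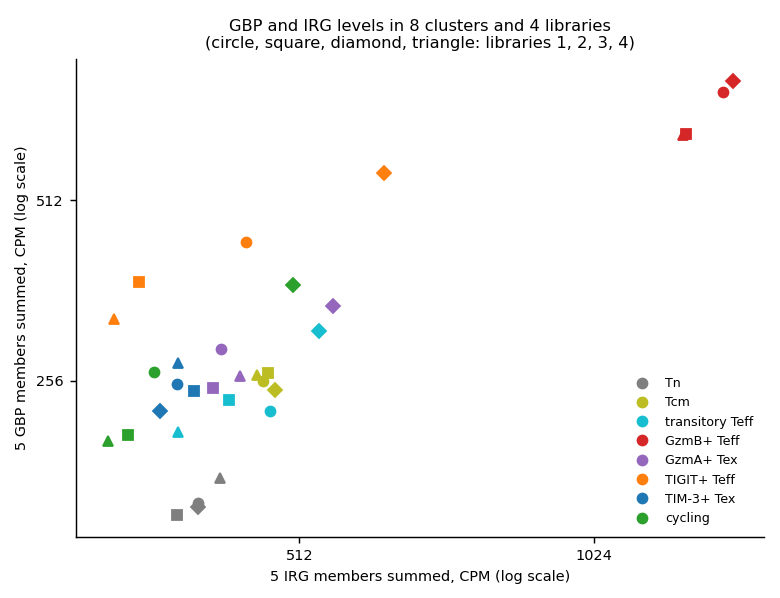
Summed level of the 5 GBPs (y axis, CPM, log scale) against the 5 IRGs (x axis, CPM, log scale) in 32 combinations of cluster (color) and library (symbol). GzmB+ Teff stands apart on both axes, TIGIT+ Teff lies higher on the GBP axis than clusters of like IRG level, and Tn is lowest on the GBP axis.

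**Figure D4:**
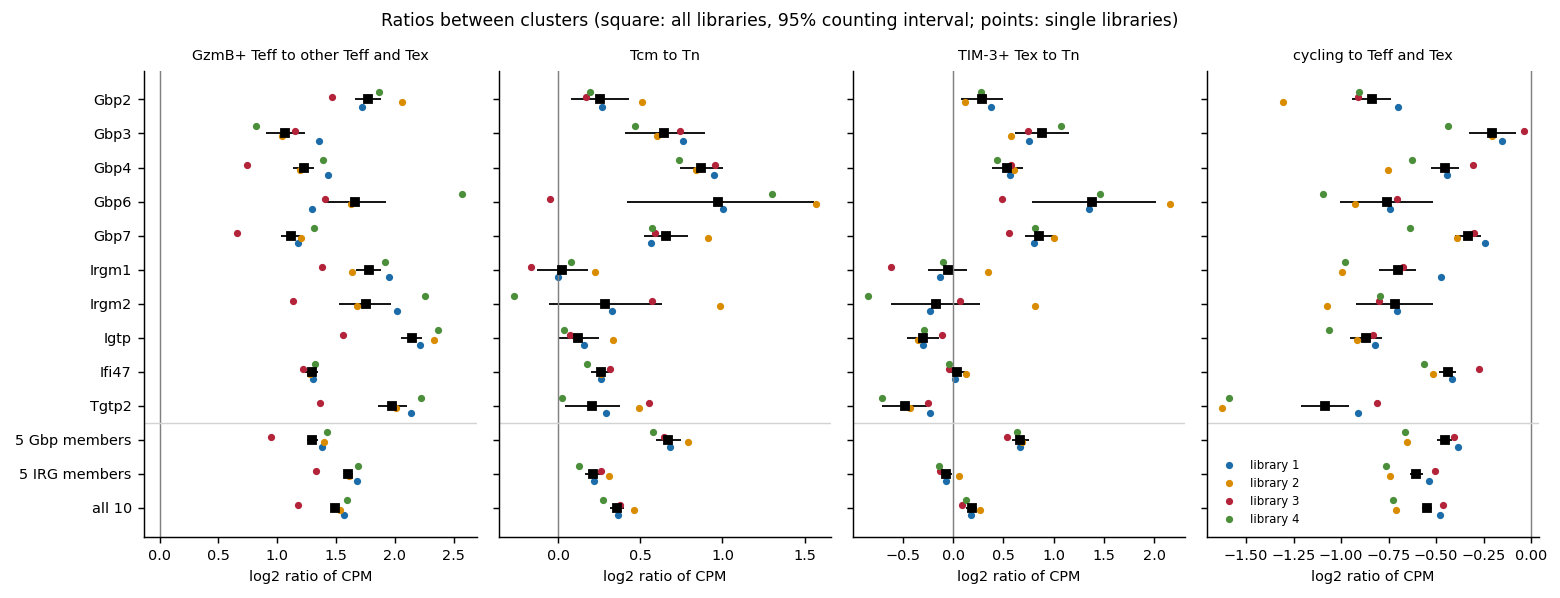
Log2 ratio of CPM (x axis, a scale of its own in each panel) for each GTPase and for sums (y axis) in 4 contrasts. Squares are all libraries with 95% counting intervals, and points are single libraries. All points of GzmB+ Teff lie above 0, the summed values of cycling cells, set against Teff and Tex with GzmB+ Teff included, lie below 0, and in Tcm and TIM-3+ Tex the GBP sum lies above the IRG sum.

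The other genes of the pathway were counted in lists chosen by name. Here the floor of 10 CPM was set in the other Teff and Tex clusters alone. Of all genes past it, 2.78% were at least 1.5-fold higher in GzmB+ Teff and 12.8% were at least 1.5-fold lower. Of 8 other family members with a row, 3 passed the floor (Gbp5, Gbp8 and Gbp9), and all 3 were at least 1.5-fold higher in GzmB+ Teff. Gbp9 was at 186 and 65.2 CPM in GzmB+ Teff and the other Teff and Tex, a log2 ratio of 1.51 (1.41 to 1.61). Of the 15 genes of the type I interferon list, 10 passed the floor and all 10 were higher, with a median log2 ratio of 2.82. Isg15, a ubiquitin-like protein, was at 1086 CPM against 74.5 CPM.

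The IFN-γ pathway list also holds genes of type I interferon signaling (Ifnar1, Ifnar2, Tyk2, Stat2, Irf7, Irf9), so its count does not measure IFN-γ signaling alone. Of its 25 genes past the same floor, 8 were at least 1.5-fold higher in GzmB+ Teff, against 2.78% of all genes. None was lower by that much, against 12.8% of all genes. The 8 were the transcription factors Stat2, Irf7 and Irf9, the feedback inhibitor Socs1, the antigen presentation genes Tapbp and Psmb10, the checkpoint ligand Cd274 (PD-L1) and the chemokine Cxcl10. Irf7, a driver of type I interferon responses, had a log2 ratio of 2.53 (2.45 to 2.60). Irf1, an early IFN-γ-induced factor, was at 247 and 214 CPM, a log2 ratio of 0.21 (0.13 to 0.29). Ifng itself was lower in GzmB+ Teff, at 121 CPM against 170 CPM in the other Teff and Tex clusters (log2 ratio −0.49, −0.60 to −0.38), and was at 207 CPM in both TIGIT+ Teff and TIM-3+ Tex. Of the receptor chains, Ifngr1 was at 206 to 399 CPM in whole clusters and Ifngr2 at 0.0780 to 5.83 CPM.

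The genes whose levels followed those of the members most closely were sought among 2785 other genes with at least 50 CPM. The measure was Pearson's r of log2(CPM + 10) with the summed members over the 32 combinations of cluster and library, which share libraries and in which GzmB+ Teff is far from the rest. The 10 closest were Rtp4 (0.96), Ifi213 (0.95), Irf7 (0.95), Ifi203 (0.95), Ifi208 (0.94), Zbp1 (0.94), Gbp9 (0.94), Mndal (0.93), Ifi209 (0.93) and Samhd1 (0.92). Rtp4 is also in the type I interferon list, Irf7 in the IFN-γ pathway list and Gbp9 among the other family members. The median r of all 2785 genes was −0.05, and 16 genes reached 0.9. By Spearman's rho, which gives less weight to GzmB+ Teff, 3 of the 10 were again among the closest 10.

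Cells with more type I interferon transcripts also held more GTPase transcripts. The list of 15 genes marked all but 1 of the 732 GzmB+ Teff cells, so 13 genes, without the abundant Ifi27l2a and Bst2, were used for a graded comparison, a choice made after the values were seen. In thinned GzmB+ Teff cells with 0, 1, 2 to 3, 4 to 7 and 8 or more UMIs of the 13 genes (12, 47, 115, 219 and 339 cells), the members were at 1000.0, 1106, 1256, 1805 and 3178 CPM. In the cells of all other clusters the same steps (6363, 2976, 1359, 278 and 46 cells) gave 641, 742, 883, 1283 and 2365 CPM. The summed level was thus higher at each step in both sets, the second of which mixes clusters. GzmB+ Teff was above the others at every step, with intervals that overlapped nowhere. Within GzmB+ Teff the intervals of steps 0, 1 and 2 to 3 overlapped one another. The 5 GBPs alone did not rise at each step in GzmB+ Teff: they were at 600, 366, 417, 566 and 1127 CPM. Their first value rests on 18 UMIs (356 to 948 CPM). The 5 IRGs were at 400, 740, 838, 1238 and 2051 CPM. The lowest step of GzmB+ Teff rests on 12 cells and 30 member UMIs.

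Of the 46 cells outside GzmB+ Teff with 8 or more such UMIs, 22 were cycling cells, 9 TIGIT+ Teff, 7 GzmA+ Tex, 5 Tcm, 2 transitory Teff and 1 TIM-3+ Tex. In GzmB+ Teff, 40.7% to 48.7% of cells reached that step in single libraries. In the other clusters 0 to 2% did, and the step was reached in all 4 libraries of cycling cells and of Tcm.

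**Figure D5:**
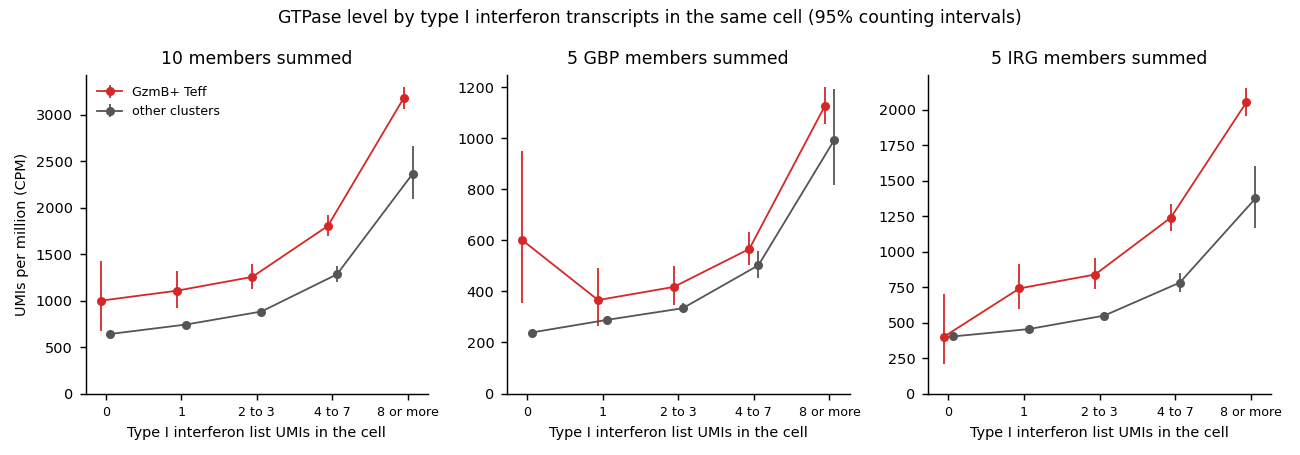
Level of the GTPases (y axis, CPM) in thinned cells grouped by their UMIs of 13 type I interferon genes (x axis), for GzmB+ Teff (red) and all other clusters (gray), with 95% counting intervals. The sum of all 10 goes from 641 to 2365 CPM in the other clusters and from 1000.0 to 3178 CPM in GzmB+ Teff. The GBP sum in GzmB+ Teff does not rise at each step, and the first red point rests on 12 cells.

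Cells with at least 4 of these UMIs were compared with those holding 0 to 3, cluster by cluster. Cycling cells with at least 4 (75 cells) were at 1771 CPM and the others at 636 CPM, a log2 ratio of 1.48 (1.31 to 1.64). It was 1.43, 1.94, 1.32 and 1.17 in libraries 1 to 4. GzmA+ Tex had a log2 ratio of 1.27 (1.01 to 1.52), GzmB+ Teff of 1.14 (1.01 to 1.27) and TIGIT+ Teff of 1.06 (0.89 to 1.24), positive in all 4 libraries of each. It was smaller in transitory Teff, at 0.59 (0.35 to 0.82), in TIM-3+ Tex, at 0.51 (0.12 to 0.87), and in Tcm, at 0.40 (0.14 to 0.64). In Tn only 10 cells had 4 or more, and the log2 ratio was −0.02 (−0.89 to 0.73). With the same 13 genes at 1 UMI or more, 439 Tn cells were at 641 CPM and the 903 without at 532 CPM, a log2 ratio of 0.27 (0.13 to 0.41) that was positive in all 4 libraries. At that step the log2 ratio was between 0.14 (Tcm) and 1.21 (GzmB+ Teff) in the other clusters, and it was positive in every library but library 3 of TIM-3+ Tex.

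Cells were also split by whether they held a UMI of Ifng itself. A split on 1 gene is not a like measure to a split on a list, so their sizes are not ranked. In GzmB+ Teff the members were at 2619 CPM in 135 cells with an Ifng UMI and at 2223 CPM in 597 without, a log2 ratio of 0.24 (0.13 to 0.34), positive in all 4 libraries. The log2 ratio was 0.28 (0.15 to 0.40) in TIGIT+ Teff, also positive in all 4 libraries, −0.02 (−0.13 to 0.09) in transitory Teff and −0.19 (−0.33 to −0.05) in Tcm, negative in all 4. With the 15-gene list at 1 UMI or more, the log2 ratio was 0.26 in cycling cells, 0.46 for TIGIT+ Teff and 0.20 for transitory Teff. Without thinning, the value for transitory Teff was −0.0034.

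Clone size was set beside the level through the TCR. In GzmB+ Teff the members were at 2548 CPM in 99 cells of clones with at least 5 cells in their library and at 2148 CPM in 361 single cells, a log2 ratio of 0.25 (0.16 to 0.33), but it was −0.08, 0.06, 0.49 and 0.43 in libraries 1 to 4. In transitory Teff (896 and 368 cells) it was −0.02 (−0.11 to 0.06), with signs that differed between libraries. In TIM-3+ Tex (486 and 42 cells) it was −0.20 (−0.39 to −0.01), negative in all 4 libraries.

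Library 3 stood apart in some clusters. In cycling cells all 10 members were highest in library 3 of the 4 libraries, but so were 48.4% of all genes there. By size, 6 of 9 members with at least 10 CPM (Gbp2, Gbp4, Gbp7, Irgm2, Igtp and Tgtp2) were at least 1.5-fold above the other libraries together, against 11.1% of all genes. Irgm2 passed that floor only through library 3, and with the floor set in the other libraries 5 of 8 were higher, against 10.7%. The sum was at 629, 549.9, 874 and 529 CPM in cycling cells of libraries 1 to 4, a log2 ratio of library 3 to the others of 0.59 (0.53 to 0.64). Tgtp2 in cycling cells was at 24.8, 19.2, 47.4 and 14.7 CPM.

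In TIGIT+ Teff, 9 members were highest in library 3, beside 37.6% of all genes, and 6 of 10 (Gbp2, Gbp6, Irgm1, Irgm2, Igtp, Tgtp2) were at least 1.5-fold above the other libraries, against 4.98% of all genes. The sum was at 888, 725, 1194 and 655 CPM, a log2 ratio of 0.50 (0.43 to 0.58). Of the 15 type I interferon genes, 10 had at least 10 CPM in each of these clusters, and 4 were 1.5-fold higher in library 3 in TIGIT+ Teff and 4 in cycling cells. The log2 ratio of the members was 0.38 (0.29 to 0.47) in transitory Teff, 0.35 (0.24 to 0.47) in GzmA+ Tex and 0.16 (0.09 to 0.23) in GzmB+ Teff. There 2 of 8, 2 of 9 and 1 of 10 members passed 1.5-fold, against 2.91%, 6.42% and 3.60% of all genes, and 7, 9 and 6 of 10 were highest in library 3, against 29.7%, 34.6% and 26.8%. In Tn it was −0.02 (−0.11 to 0.06) and in Tcm 0.01 (−0.06 to 0.07), where no member passed 1.5-fold, against 0.867% and 0.816% of all genes, and 5 and 2 of 10 were highest in library 3, against 18.8% and 28.9%. In TIM-3+ Tex, with 31 cells in library 3, it was −0.12 (−0.33 to 0.09), with no member past 1.5-fold (7.56% of all genes) and 2 of 10 highest in library 3 (33.9%). Which treatment library 3 received is not known, and with 1 library a difference between libraries and one between treatments cannot be told apart.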

How the data were processed

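The authors deposited UMI counts for each gene in each cell, not normalized. According to the submitters' processing notes the reads were processed with Cell Ranger 7.00 and mm10. By their methods, reads were downsampled to even out the libraries, and a cell needed over 2500 UMIs, less than 25000 UMIs, a mitochondrial share below 15%, and Cd3e/g with Cd8a. Cluster names, library numbers, the UMI count and the mitochondrial share of each cell, a fraction, were taken from the deposited cell table, and clonotypes from the deposited TCR table. Genes were named through GENCODE M21 (GRCm38), which gave a symbol to 17549 of 17561 genes. The genes named in the text are the 10 members, the lists of other GTPases, IFN-γ pathway and type I interferon genes, and the 10 genes of closest pattern. Gbp5, Gbp8, Gbp9, Isg15, Irf7 and Irf1 were picked from these lists after their values were seen, and 1 gene of the IFN-γ pathway list is not reported here. Members and lists were chosen with earlier results of these data known, and are no independent evidence.

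UMIs were summed per cluster and library and divided by all UMIs of the same cells (CPM). Genes with at least 10 CPM over the compared cells, or where stated in the reference cells alone, were counted as past 1.5-fold. Intervals are at the 95% level: exact Poisson for CPM, conditional binomial for ratios and Clopper-Pearson for shares. Thinning to 2500 UMIs used seed 7. Doublets were not removed here, and cells with 1 TRB chain were an alternative. For 721 cells the sum of the count table differed from the UMI total of the cell table, and the sum was used. Calculations were made in Python 3.11.15 (scipy 1.17.1, numpy 2.4.6, pandas 2.3.3), with plots in matplotlib 3.10.9. The ratios and intervals were tested on simulated data for GzmB+ Teff against the other Teff and Tex clusters: with 200 of 7554 genes changed by a known amount, the median absolute error was 0.0643 (log2) and 95.3% of intervals held the true value. The simulated counts had Poisson counting error only, without spread between cells, clones or libraries. The simulation thus checks the calculation and cannot show how the intervals cover such spread in the real data. Alternatives changed the depth, weight, labels and cells used, the fold and the lists, and left out each library in turn. Treatments were not compared, since no source used here ties a library number to a treatment.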

Additional observations from a re-analysis of the deposited data

Results flagged for a closer look

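Among 104 sets of 4 libraries (a member or sum in a cluster), 6 had 1 library far from the other 3 by Dixon's criterion, which chance gives in about 1 of 20 sets. In Tcm, Gbp2 was at 46.2 CPM in library 2 and at 37.2 to 38.1 CPM in the other libraries. In the same cluster Gbp3 was at 27.8 CPM in library 1 and at 24.5 to 24.9 CPM in the others. In library 3, Gbp6 was at 41.9 CPM in GzmB+ Teff, against 24.6 to 27.4 CPM. Gbp7 in transitory Teff was at 107 CPM in library 3, against 81.6 to 83.4 CPM. Irgm2 in GzmA+ Tex was at 33.0 CPM in library 3, against 10.3 to 13.9 CPM. Ifi47 in cycling cells was at 293 CPM in library 3, against 222 to 224 CPM. The high library was library 3 in 4 of the 6 sets.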

How the results depend on the processing

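For GzmB+ Teff against the other Teff and Tex clusters, the log2 ratio of the summed members (1.49) was 1.10 with cells assigned by Leiden number, 1.56 with the mean of each cell's own CPM and with each clonotype taken once, 1.58 after thinning, 1.57 without cells holding macrophage or plasma cell UMIs, 1.62 in cells with 1 TRB chain, 1.59 without Ifi47 and 1.59 without TIGIT+ Teff, an alternative added after seeing the data. The setting without cells holding macrophage or plasma cell UMIs kept 5112 of 11754 cells. It left 312 of 732 cells in GzmB+ Teff and 20 of 571 in GzmA+ Tex, so the compared groups changed in makeup. Leaving out each library gave 1.46 to 1.54, and all 10 members stayed past 1.5-fold. Over 80 values of single members under alternatives, all 80 stayed above 0 (0.71 to 2.30) and 28 lay outside the counting interval. For Teff and Tex against Tn (0.70) the same settings gave 0.80 (mean of cells), 0.80 (thinned), 0.84 (macrophage and plasma cell UMIs), 0.84 (1 TRB chain), 1.15 (each clonotype once) and 0.92 (without Ifi47), 0.63 to 0.77 without single libraries, and at 2-fold 5 members were higher in place of 8. Without GzmB+ Teff, a setting added after seeing the data, it was 0.35, with 4 members higher. For Tcm against Tn (0.36) the log2 ratio was 0.42 without cells holding macrophage or plasma cell UMIs and 0.43 without Ifi47, and 0.33 to 0.40 without single libraries, while 0 members passed 2-fold and 1 passed 1.5-fold with 10 CPM added to both sides. For cycling cells (−0.55) it was −0.61 without cells holding macrophage or plasma cell UMIs, −0.75 in cells with 1 TRB chain, −0.86 with each clonotype once, −0.61 without Ifi47 and −0.60 to −0.49 without single libraries, and 1 member was lower by 2-fold. Without GzmB+ Teff it was −0.19, with 0 members lower. With 10 CPM required in the reference cells alone, also added after seeing the data, 9, 6 and 3 members were higher for GzmB+ Teff, for Teff and Tex against Tn and for Tcm. For TIM-3+ Tex against transitory Teff (−0.06) it was −0.12 (mean of cells), −0.14 (thinned), −0.15 (macrophage and plasma cell UMIs), −0.22 (Leiden number), −0.14 (1 TRB chain), −0.13 (each clonotype once) and −0.17 to −0.0085 without single libraries, and 1, 2 and 2 members were lower by 1.5-fold when thinned, without those UMIs and by Leiden number, with 0 to 1 without single libraries. The cause of these shifts was not tested.

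Shares of cells with a member UMI depended on depth: they were 100%, 96.0% and 95.4% unthinned and 88.5%, 52.8% and 39.6% for at least 2 UMIs in GzmB+ Teff, other Teff and Tex, and Tn, and 95.9% to 96.8%, 79.6% to 81.6% and 72.7% to 74.5% without single libraries. For cells with and without the type I list, unthinned values were 0.094 in cycling cells, 0.16 for TIGIT+ Teff and −0.0034 for transitory Teff, which turned its direction. Without Ifi27l2a and Bst2 the value was 0.65 in cycling cells, and at 4 UMIs or more of that list 1.48, 0.59 and 1.06 in cycling cells, transitory Teff and TIGIT+ Teff, both added after seeing the data. Without single libraries it was 0.20 to 0.44 in cycling cells, 0.12 to 0.28 for transitory Teff and 0.32 to 0.66 for TIGIT+ Teff, highest without library 1 in the first and the last. Of the 10 genes of closest pattern, 3 remained with Spearman's rho. For clones the values without single libraries were 0.13 to 0.33 in GzmB+ Teff, −0.23 to −0.15 in TIM-3+ Tex and −0.07 to 0.06 in transitory Teff, whose sign depended on the library left out. No paired analysis was possible because the results come from no test: cells were clustered by the expression that is compared here, and the library numbers are neither replicates nor tied to a treatment. The cluster ratios within each library are given beside the pooled ones. Depth limits Gbp6 and Irgm2 most, with 891 and 1378 UMIs in all, and the groups of 12 and 31 cells.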
